A study of Mus musculus with 384 samples.

Results

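The 8 genes described here encode 3 linked kinds of synaptic protein: the cerebellins *Cbln1*, *Cbln2* and *Cbln4*, the neurexins *Nrxn2* and *Nrxn3*, and the neurexophilins *Nxph1*, *Nxph3* and *Nxph4*. They were taken by symbol from a table in which 41267 gene entries had a value, and were read in single cells sorted as dopamine (DA) neurons. Those with at least 500000 reads counted on genes were kept, 209 of 384 cells, of which some went against that label in their markers, as given below. All cells came from C57BL6/J mice labelled DAT-Cre;Ai9(RCL-tdT), 3 female and 5 male, aged P24 to P36; sexes and ages are those of the sample labels, and the series text states different ones. In these mice Cre is made with the dopamine transporter *Slc6a3* and switches on tdTomato for the life of the cell, so the reporter also marks a cell that made the transporter only earlier. Living tdTomato+ cells were sorted from dissociated midbrain with the hypothalamus included, and each mouse was 1 run of the Fluidigm C1, an instrument that captures single cells. There was no other genotype and no treatment. Cells were grouped by the reads of 3 genes. A cell was *Grp*+ or *Neurod6*+ from 10 reads of that gene, and *Th*-high from 500 CPM (reads of a gene, scaled to a total of 1000000 reads per cell) of *Th*, the rate-limiting enzyme of dopamine synthesis, and *Th*-low below that. *Grp* encodes gastrin-releasing peptide and *Neurod6* a basic helix-loop-helix transcription factor, and the overlap of these 2 genes among DA neurons was a question of the study.

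Neurexins are presynaptic adhesion molecules with long (alpha) and short (beta) forms, and their extracellular parts bind many partners across the cleft. Cerebellins are secreted members of the C1q family that bind neurexins carrying a particular spliced segment and, on the other side of the synapse, delta glutamate receptors; *Cbln4* is known to bind the netrin receptor DCC as well. Neurexophilins are secreted glycoproteins that bind alpha-neurexins tightly. A neuron can therefore make the receptor, the secreted ligand or both, and the combination differs between neuron types.

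The 250 bases before the start sites of *Cbln4* and *Nxph1*, whose values by class are given below and which were the secreted members with an entry, are shown from RefSeq on GRCm38.p6. Capitals mark matches to the E-box CANNTG, the core to which basic helix-loop-helix factors bind, which reads the same on both strands. An entry was found for 3 of the 8 genes, the third being *Nrxn3*.
Cbln4, chr2:172043467-172043716, minus strand: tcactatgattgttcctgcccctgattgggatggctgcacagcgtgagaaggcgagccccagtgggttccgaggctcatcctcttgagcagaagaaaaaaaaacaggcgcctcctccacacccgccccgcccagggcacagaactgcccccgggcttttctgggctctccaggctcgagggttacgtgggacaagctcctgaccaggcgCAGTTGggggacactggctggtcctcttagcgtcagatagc
Nxph1, chr6:8949769-8950018, plus strand: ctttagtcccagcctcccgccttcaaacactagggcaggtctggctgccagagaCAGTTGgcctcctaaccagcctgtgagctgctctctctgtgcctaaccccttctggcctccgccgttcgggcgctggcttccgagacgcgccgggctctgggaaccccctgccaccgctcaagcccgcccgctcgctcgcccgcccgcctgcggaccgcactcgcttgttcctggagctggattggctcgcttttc
Each of these stretches held 1 E-box, with the letters CAGTTG in both. With the 50 bases after the start included, *Cbln4* had a second match, CATCTG, which is the NeuroD-type letters CAGATG read on the other strand. The 3 windows listed for *Nrxn3* held 0, 1 and 5 E-boxes. Of 32851 promoters of the same 300 bases, 72.3% held CANNTG, which includes CAGATG, and 17.2% held CAGATG on either strand, so a match in a window is common.

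Each mouse contributed 12 to 45 retained cells, with a median of 780484 reads and 9123 genes per cell. There were 43 *Grp*+/*Neurod6*+ cells, 34 *Grp*+/*Neurod6*- cells, 6 *Grp*-/*Neurod6*+ cells and 126 cells with neither, and 186 cells were *Th*-high and 23 *Th*-low. *Th*-high cells averaged 6936 CPM of *Th* and *Th*-low cells 74.2 CPM, which the limit on *Th* fixes. *Slc6a3*, which the limit did not use, was at 3306 and 331 CPM. A further 6 cells stood apart by at least 1000 reads summed over the markers of 1 non-neuronal type, 4 of them over astrocyte markers (1180 reads in the lowest of the 4, 77 in the next cell) and 2 over oligodendrocyte markers (18749 reads in the lower of the 2, 811 in the next cell). Of these 6, called glial-rich below, 5 were *Th*-low and all were in the class with neither *Grp* nor *Neurod6*. Markers of microglia reached at most 12 reads in a cell, and those of endothelial cells at most 16. Results are given with and without the glial-rich cells where they touch them.

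*Nrxn3* and *Cbln4* stood highest per length, and *Nxph4* was close to absent. Levels between genes were compared as RPKM (CPM divided by the length of all annotated exons in kilobases) of the reads summed over the cells of a mouse. *Nrxn3* averaged 63.4 ± 18.2 RPKM (SD, n = 8 mice), with a lowest mouse at 37.1, a median of 65.0 and a highest mouse at 89.8 RPKM. *Cbln4* averaged 36.4 ± 21.8 RPKM and ranged from 5.18 to 75.5 RPKM with a median of 33.9 RPKM. The order then ran through *Nxph1* at 17.4 ± 18.6, *Cbln1* at 9.47 ± 7.15, *Cbln2* at 4.56 ± 4.26, *Nxph3* at 2.61 ± 2.18, *Nrxn2* at 1.88 ± 0.959 and *Nxph4* at 0.250 ± 0.364 RPKM, all means and SD over the 8 mice.

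Of the 7 neighbouring pairs in this order, 2 differed. *Nrxn3* was above *Cbln4* in 6 of 8 mice, by 1.06 on the log2 RPKM scale (p = 0.0312 by a two-sided exact permutation test that flips the signs of the differences), and *Nrxn2* was above *Nxph4* in 8 of 8 mice, by 2.86 (exact p = 0.00781, the smallest that 8 mice allow). For the other 5 pairs the exact p ranged from 0.0781 to 0.844, so the order within each of those pairs, from *Cbln4* down to *Nrxn2*, was not settled with 8 mice. The p-values for the 7 pairs were not adjusted, and without mouse 2, 3, 4, 5, 6 or 7 the first pair had an exact p of 0.0625. The 3 highest mice for *Nxph1* were the 3 females.

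**Figure D1:**
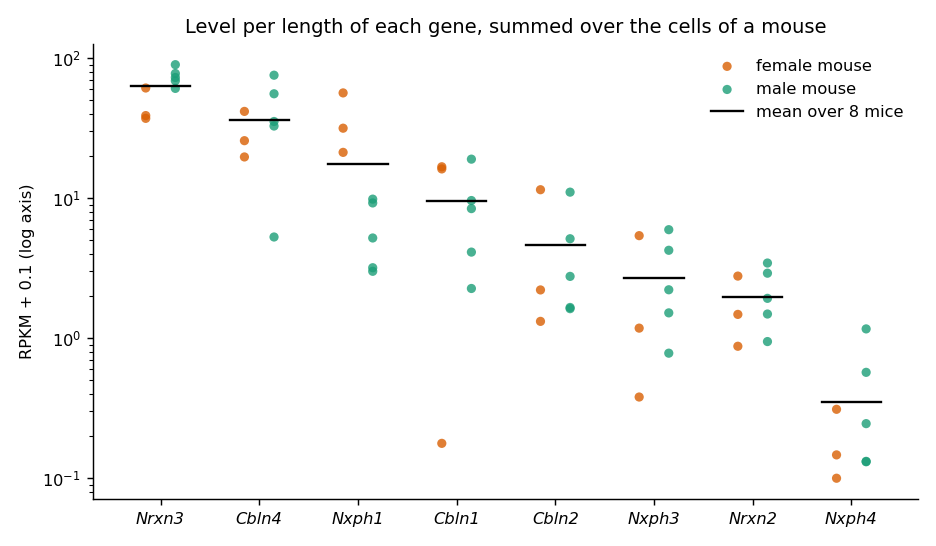
Level of each gene in RPKM (log axis, 0.1 added) in reads summed over the cells of each mouse; orange points are the 3 female mice, green points the 5 male mice, and the line is the mean over 8 mice. Nrxn3 lies between 37.1 and 89.8 RPKM, Nxph4 is at or near 0, and the females lie above the males for Nxph1 alone among the 8 genes.

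The members differed widely in how many cells held them. At least 10 reads of *Nrxn3* were counted in 197 of 209 cells (94.3%), of *Nrxn2* in 100 (47.8%), of *Cbln4* in 91 (43.5%), of *Nxph1* in 51 (24.4%), of *Cbln1* in 44 (21.1%), of *Cbln2* and of *Nxph3* in 27 each (12.9%), and of *Nxph4* in 2 (0.957%). *Nrxn3* was thus a gene of nearly every cell, and the ligands were genes of some cells. The 10 cells with the most reads held 11.5% of all *Nrxn3* reads but 34.5% of those of *Cbln4*, 54.5% of those of *Cbln1*, 58.6% of those of *Nxph1* and 65.2% of those of *Cbln2*. For *Nxph4* a single cell held 48.9% of the 94 reads in all 209 cells. *Nrxn2* was counted at low level in most cells, since 197 cells had at least 1 read of it. No molecular identifiers were used, so these are amplified reads and not molecules, and intervals given below cover counting error only.

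Most cells that held a cerebellin held 1 of the 3. No cerebellin reached 10 reads in 86 cells, 1 did in 92, 2 did in 23 and all 3 in 8. *Cbln4* was alone in 68 cells, of which 40 were *Neurod6*+, whereas *Cbln1* was alone in 21 cells, of which 0 were *Neurod6*+. *Cbln2* went mostly with the others, as 16 of its 27 cells also held *Cbln1* and 3 held it alone. Among neurexophilins, *Nxph1* and *Nxph3* were both present in 4 cells, against 47 with *Nxph1* and not *Nxph3* and 23 with *Nxph3* and not *Nxph1*. *Nxph3* was nested in *Cbln4*: 25 of 27 *Nxph3*+ cells were *Cbln4*+, and those are 27.5% of the 91 *Cbln4*+ cells. *Slc17a6*, the vesicular glutamate transporter of subcortical neurons, was present in 113 of 209 cells (54.1%), and in 26 of 27 *Cbln2*+ cells, 24 of 27 *Nxph3*+ cells, 74 of 91 *Cbln4*+ cells, 35 of 51 *Nxph1*+ cells and 29 of 44 *Cbln1*+ cells.

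*Cbln4* and *Nxph3* were present in more of the *Neurod6*+ than of the *Neurod6*- cells in each mouse, and *Cbln1* in fewer. The study's own comparisons of its *Neurod6* cluster, on cells of the same mice, had listed *Cbln4* and *Nxph3*, so their direction here is not independent evidence. *Cbln4* was positive in 42 of 43 *Grp*+/*Neurod6*+ cells (97.7%, exact 95% interval 87.7 to 99.9%), in 12 of 34 *Grp*+/*Neurod6*- cells (35.3%), in 4 of 6 *Grp*-/*Neurod6*+ cells and in 33 of 126 cells with neither (26.2%, 18.8 to 34.8%). The median over cells was 266 CPM in the *Grp*+/*Neurod6*+ class and 0 CPM in the *Grp*+/*Neurod6*- class and in the class with neither. *Nxph3* was positive in 18 of 43 *Grp*+/*Neurod6*+ cells (41.9%), 5 of 34 *Grp*+/*Neurod6*- cells (14.7%) and 3 of 126 cells with neither (2.38%). *Cbln1* ran the other way, with 3 of 43 *Grp*+/*Neurod6*+ cells (6.98%), 9 of 34 *Grp*+/*Neurod6*- cells (26.5%), 0 of 6 *Grp*-/*Neurod6*+ cells and 32 of 126 cells with neither (25.4%). The 0 of 6 allows a share of up to 50.0%, taken as 3 cells of the total.

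**Figure D2:**
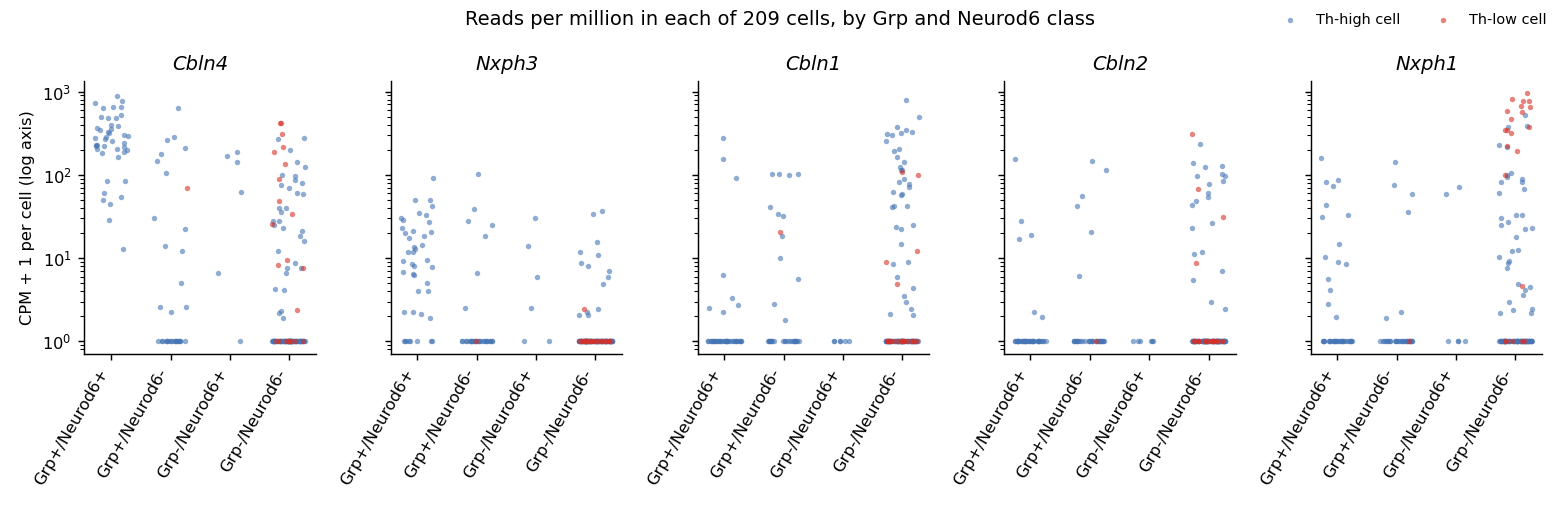
CPM (log axis, 1 added) of 5 genes in each of 209 cells, 1 point per cell, by Grp and Neurod6 class; blue points are Th-high cells and red points Th-low cells. All but 1 of the 43 Grp+/Neurod6+ cells are positive for Cbln4, and the highest Nxph1 values are red points in the class with neither gene.

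Over the 6 mice with at least 3 cells in each class, 93.8 ± 15.3% of *Neurod6*+ cells were positive for *Cbln4* (mean ± SD over mice), against 31.8 ± 19.6% of *Neurod6*- cells (higher in 6 of 6 mice; p = 0.0312, two-sided, by the exact permutation test, and 6 mice allow none smaller). For *Nxph3* the shares were 41.5 ± 33.1% and 8.26 ± 10.4% (higher in 6 of 6, exact p = 0.0312), a difference that was 21.25 percentage points without mouse 1 (exact p = 0.0625), and for *Cbln1* 6.11 ± 7.12% and 33.3 ± 21.2% (lower in 6 of 6, exact p = 0.0312). Of 12106 genes, 3.64% reached this p in the same test, against 3 of the 8 members; 2.17% were higher and 1.47% lower in every mouse. *Cbln2* was at 6.11 ± 7.12% and 16.7 ± 13.2% (exact p = 0.125), *Nxph1* at 22.1 ± 7.99% and 22.7 ± 9.43% (exact p = 0.844), and *Nrxn2* at 47.9 ± 13.3% and 52.5 ± 16.8% (exact p = 0.406). The p-values of these 24 share comparisons, for 8 genes in 3 contrasts, were not adjusted. At a threshold of 50 reads for a positive cell, the difference for *Nxph3* was 7.64 percentage points (exact p = 0.5), since few cells held so many reads of it.

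Levels in reads summed per mouse gave the same directions, but no member passed edgeR's test across all genes, and 2 passed that of DESeq2. In such sums fewer positive cells and fewer reads per positive cell cannot be told apart. In mice 1, 2, 3, 5, 7 and 8, *Cbln4* was at 523, 228, 67.8, 465, 328 and 324 CPM in *Neurod6*+ cells and at 32.2, 35.7, 4.08, 30.6, 38.5 and 114 CPM in *Neurod6*- cells. Each mouse was higher in its *Neurod6*+ cells, and the ranges overlapped in mouse 3, low in both classes, and mouse 8, high in its *Neurod6*- cells. The log2 difference was 2.99 ± 0.61 (SE), with an adjusted p (Benjamini-Hochberg, 12606 genes) of 0.136 by the quasi-likelihood test of edgeR and of 3.44e-05 by DESeq2. Within mice of the first sequencing lane it was 3.57 and within the second 2.67. With the mouse as a block, pairing the 2 classes of each animal, it was 3.29 (edgeR adjusted p = 0.0524), and without mouse 3 it was 2.96 (edgeR adjusted p = 0.0197).

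*Nxph3* was a low gene in both classes. It was at 52.6, 11.3, 6.72, 13.1, 8.58 and 16.1 CPM in the *Neurod6*+ cells of the same mice and at 2.01, 7.57, 0.331, 0.975, 1.40 and 8.49 CPM in the others. Each mouse was again higher in its *Neurod6*+ cells, with mouse 1 far above the rest on 3 cells. The log2 difference was 2.43 ± 0.85 (edgeR adjusted p = 0.601). *Cbln1* was at 0, 9.49, 0, 54.1, 0 and 15.9 CPM in *Neurod6*+ cells and at 61.8, 32.3, 7.95, 58.1, 21.2 and 42.1 CPM in *Neurod6*- cells. It was lower in *Neurod6*+ cells in 6 of 6 mice, and in 3 mice no read was counted there, but mouse 5 had nearly the same level in both classes. Its log2 difference was -1.41 ± 1.20 (edgeR adjusted p = 0.982), -3.62 with the mouse as a block (adjusted p = 0.581) and -2.62 without mouse 5 (adjusted p = 0.948), against -0.95 without mouse 1, -3.28 and -0.70 within the first and second lane and -0.79 with *Neurod6*+ cells from 50 reads. *Cbln2* was lower in 5 of 6 mice, between 0 and 16.5 CPM against 4.35 and 47.1 CPM, with a log2 difference of -2.02 ± 1.25 (edgeR adjusted p = 0.923), -3.89 with the block (adjusted p = 0.525), -3.22 with *Neurod6*+ cells from 50 reads and -0.065 with *Neurod6*+ cells from 1 read.

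*Nxph1* was counted in a like share of both classes but at other levels. It was at 4.35, 8.04, 8.85, 9.11, 19.4 and 24.2 CPM in *Neurod6*+ cells and at 182, 16.4, 15.9, 50.3, 66.2 and 24.3 CPM in *Neurod6*- cells. All 6 mice were lower in *Neurod6*+ cells, with hardly any gap in mouse 8. The log2 difference was -2.17 ± 0.63 (edgeR adjusted p = 0.455, DESeq2 adjusted p = 0.0356), -1.25 without mouse 1 (edgeR adjusted p = 0.808), and -1.39 among *Th*-high cells alone, where the *Th*-low cells, none of which was *Neurod6*+, are left out. The neurexins showed little difference. *Nrxn3* lay between 474 and 1147 CPM in *Neurod6*+ cells and between 493 and 1129 CPM in the others (log2 difference 0.06 ± 0.24), and *Nrxn2* between 13.9 and 45.2 CPM against 11.2 and 49.4 CPM (-0.34 ± 0.43; edgeR adjusted p = 0.998 for both).

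Of the 7 members tested between *Neurod6* classes, edgeR called 0 at an adjusted p below 0.05, where it called 0.0555% of all genes. At an unadjusted p below 0.05 there were 3 (*Cbln4*, *Nxph1* and *Nxph3*), against 6.2% of all genes, and 5 with the mouse as a block (*Cbln1* and *Cbln2* added). DESeq2 called 2 (*Cbln4* and *Nxph1*), against 1.01%. *Cbln4* and *Nxph3* were higher in every mouse, as were 2.28% of all genes, and *Cbln1* and *Nxph1* lower in every mouse, as were 4.65%. *Nxph4* did not pass the filter on low counts in any comparison. Markers of other cell types differed beside these results: summed astrocyte markers reached 676 CPM and oligodendrocyte markers 2511 CPM in *Neurod6*- sums, against 3.61 and 131 CPM in *Neurod6*+ sums, and GABA neuron markers ran from 27.9 to 1694 CPM against 2.47 to 333 CPM. Without the glial-rich cells the share of *Cbln4*+ cells differed by 60.3 percentage points, that of *Nxph3*+ cells by 32.9 and that of *Cbln1*+ cells by -29.2, each at the smallest exact p. The part of the GABA neuron markers was not tested.

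By *Grp*, *Cbln4* and *Nxph3* were again present in more cells and *Cbln1* in fewer. In the 7 mice with at least 3 cells in each class, 68.0 ± 18.6% of *Grp*+ cells and 31.7 ± 17.3% of *Grp*- cells were positive for *Cbln4* (higher in 7 of 7 mice; p = 0.0156, two-sided, by the exact permutation test, and 7 mice allow none smaller). *Nxph3* was positive in 33.3 ± 25.2% and 4.99 ± 9.16% (higher in 7 of 7, exact p = 0.0156), *Cbln1* in 13.0 ± 11.2% and 32.5 ± 17.3% (lower in 7 of 7, exact p = 0.0156) and *Cbln2* in 11.3 ± 10.9% and 19.7 ± 15.3% (lower in 6 of 7, exact p = 0.0469). The last difference was -4.36 percentage points without mouse 7, and its exact p was above 0.05 when any 1 mouse other than mouse 5 was left out. These 4 members passed an unadjusted 0.05, as did 7.25% of 12106 genes; the share was higher in every mouse for 2.24% of genes and lower in every mouse for 0.396%. The result for *Cbln2* did not hold when each cell was thinned to 500000 reads (exact p = 0.156), while the other 3 did. *Nxph1* was positive in 15.4 ± 8.68% of *Grp*+ and 31.4 ± 16.7% of *Grp*- cells (exact p = 0.109). Summed astrocyte and oligodendrocyte markers reached 811 and 2558 CPM in *Grp*- sums, against 0.665 and 95.9 CPM in *Grp*+ sums; without the glial-rich cells the differences were 34.6 percentage points for *Cbln4*, 28.3 for *Nxph3*, -21.8 for *Cbln1* and -7.95 for *Cbln2*. Since most *Neurod6*+ cells are *Grp*+, the *Grp* and *Neurod6* comparisons share many cells and are not separate evidence.

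In mice 1, 2, 3, 5, 6, 7 and 8, *Cbln4* had a lowest value of 40.3, a median of 259 and a highest of 327 CPM in *Grp*+ cells, and a lowest of 9.25, a median of 36.8 and a highest of 63.0 CPM in *Grp*- cells. It was higher in *Grp*+ cells in 6 of 7 mice. The exception was mouse 6, at 50.1 CPM in *Grp*+ and 63.0 CPM in *Grp*- cells. The log2 difference was 2.56 ± 0.47 (edgeR adjusted p = 0.152, DESeq2 adjusted p = 1.51e-05), and 2.96 without mouse 6 (edgeR adjusted p = 0.0272) or 2.57 without mouse 3 (0.0281). *Nxph3* ranged from 4.07 to 34.9 CPM with a median of 6.90 CPM in *Grp*+ cells, and from 0 to 7.84 CPM with a median of 1.22 CPM in *Grp*- cells. It was higher in *Grp*+ cells in each of the 7 mice, with a log2 difference of 2.67 ± 0.93 (edgeR adjusted p = 0.697).

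*Cbln1* ranged from 0 to 29.2 CPM with a median of 10.5 CPM in *Grp*+ cells, and from 7.98 to 83.4 CPM with a median of 38.8 CPM in *Grp*- cells. It was lower in *Grp*+ cells in 7 of 7 mice (log2 difference -1.91 ± 0.79, edgeR adjusted p = 0.809). *Cbln2* was also lower in 7 of 7 mice, at a median of 2.84 against 8.95 CPM (-1.87 ± 1.00, edgeR adjusted p = 0.908). *Nxph1* was lower in 6 of 7, at a median of 7.49 against 61.2 CPM (-2.80 ± 0.87, edgeR adjusted p = 0.667), and differed by -1.77 among *Th*-high cells alone. *Nrxn3* and *Nrxn2* differed by 0.34 ± 0.22 and -0.38 ± 0.42. Of the 7 members tested, edgeR called 0 (0.00799% of all genes), 4 had an unadjusted p below 0.05 (*Cbln1*, *Cbln4*, *Nxph1* and *Nxph3*, against 5.9% of all genes, and 6 with the mouse as a block, which added *Cbln2* and *Nrxn3*) and DESeq2 called *Cbln4* alone (0.432% of all genes). *Nxph3* was higher in every mouse, as were 1.44% of all genes, and *Cbln1* and *Cbln2* lower in every mouse, as were 1.65%.

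**Figure D3:**
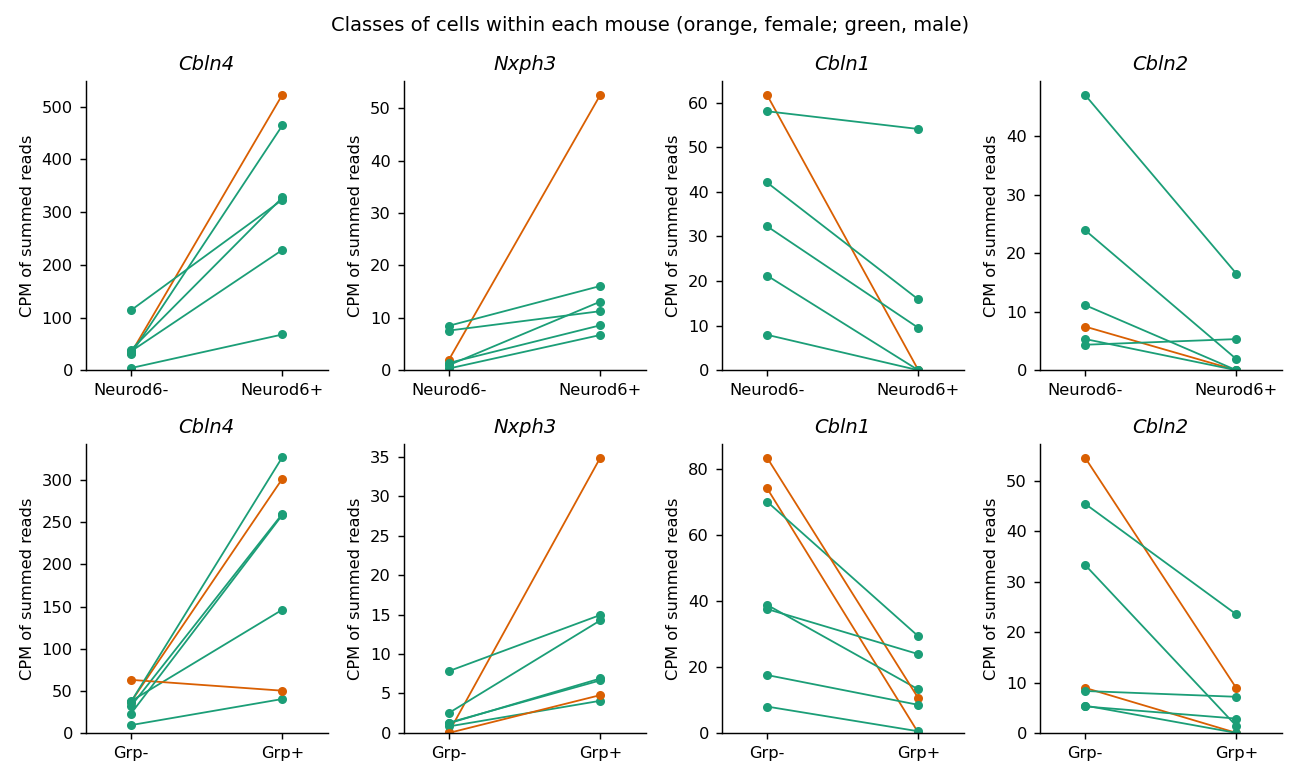
CPM in reads summed over the cells of a class, 1 line per mouse joining its 2 classes, for 4 genes by Neurod6 (6 mice, upper row) and Grp (7 mice, lower row); orange lines are female and green lines male mice. Cbln4 and Nxph3 lines go up toward the positive class except Cbln4 in mouse 6, and Cbln1 lines go down.

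To separate the marker genes, *Neurod6* was compared within *Grp*+ cells and *Grp* within *Neurod6*- cells. Within *Grp*+ cells, *Cbln4* in mice 2, 3, 5, 7 and 8 was at 232, 85.2, 505.9, 328 and 324 CPM with *Neurod6* and at 48.1, 7.08, 43.0, 78.2 and 343 CPM without. The first 4 mice were higher with *Neurod6*, and mouse 8 had like levels in both classes. The log2 difference was 1.49 ± 0.75 (edgeR p = 0.0694, adjusted p = 1.00), 2.31 with the mouse as a block (adjusted p = 0.772) and 2.71 without mouse 8 (adjusted p = 0.690). *Nxph3* was at 9.53, 9.59, 14.7, 8.58 and 16.1 CPM with *Neurod6* and at 19.7, 0, 0, 1.65 and 10.4 CPM without, higher in 4 of 5 mice and lower in mouse 2 (0.88 ± 1.25). Of the 6 members tested, edgeR called 0 (0.0091% of all genes), as did DESeq2 (0.275%), and 0 had an unadjusted p below 0.05 (3.97%), or 1 with the block (*Cbln4*).

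Within *Neurod6*- cells, *Cbln4* in mice 2, 3, 5, 6, 7 and 8 had a lowest value of 7.08, a median of 45.6 and a highest of 343 CPM with *Grp*, and a lowest of 3.64, a median of 28.2 and a highest of 63.0 CPM without. It was higher with *Grp* in 5 of 6 mice, all but mouse 6, with a log2 difference of 1.60 ± 0.79 (edgeR p = 0.0611, adjusted p = 1.00), and of 0.43 without mouse 8 (edgeR p = 0.552). The high end was mouse 8, in which the *Neurod6*- cells with *Grp* held as much *Cbln4* as its *Neurod6*+ cells, on 3 cells at 624.7, 286.5 and 0 CPM. *Cbln1* was higher with *Grp* in 2 of 6 mice (log2 difference -1.05 ± 0.86, edgeR p = 0.239). For *Cbln2* it was also 2 of 6 mice (-0.99 ± 1.27, edgeR p = 0.450). *Nxph3* was higher with *Grp* in 3 of 6 mice and was too low to be tested, so its difference by *Grp* was not shown apart from *Neurod6*. *Nrxn3* ran from 717 to 1342 CPM with *Grp* and from 466 to 1089 CPM without (0.46 ± 0.21, log2 difference, edgeR unadjusted p = 0.0467), a difference that was 0.41 without the glial-rich cells (unadjusted p = 0.0738). With all cells it was the 1 of 6 members tested with an unadjusted p below 0.05 (4% of all genes), and *Nxph1* was a second with the mouse as a block; edgeR and DESeq2 called 0, against 0.00848% and 0.307% of all genes. Nearly all of the 34 *Grp*+/*Neurod6*- cells were *Th*-high, against 104 of the 126 cells with neither gene. Summed per mouse, *Nrxn3* averaged 78.2 CPM in *Th*-low and 899 CPM in *Th*-high cells (5 mice). The part of the *Th*-low cells in the *Nrxn3* difference by *Grp* was not tested. Whether the difference by *Neurod6* is larger than that by *Grp* was not tested.

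*Nxph1* and *Nrxn3* set the *Th*-low cells apart, in opposite directions. *Nrxn3*, present in 186 of 186 *Th*-high cells at a median of 949 CPM, was positive in 11 of 23 *Th*-low cells at a median of 14.2 CPM. *Nxph1* was positive in 35 of 186 *Th*-high cells (18.8%, exact 95% interval 13.5 to 25.2%) and in 16 of 23 *Th*-low cells (69.6%, 47.1 to 86.8%), with a median of 347 CPM in the latter. The 5 glial-rich cells among the 23 held at most 2 reads of *Nxph1*. In the other 18, from 6 mice, *Nxph1* was positive in 16 (88.9%, 65.3 to 98.6%) at a median over the 18 of 422 CPM, *Nrxn3* in 8 (44.4%), *Cbln4* in 11 (61.1%), *Nrxn2* in 6, *Cbln1* and *Cbln2* in 3 each, and *Nxph3* and *Nxph4* in 0, which allows a share of up to 16.7% by the same measure of 3 cells of the total. These 18 cells were neurons of the sort by other genes: all had at least 10 reads of *Slc6a3*, at a mean of 420 CPM against 3323 CPM in *Th*-high cells, and all were positive for *Slc17a6*. The 2 without *Nxph1*, 1 each in mice 2 and 5, held 213 and 1515 reads of *Gad2*, a GABA-synthesizing enzyme, while 15 of the 16 others held at most 4. The remaining cell, in mouse 1, held 264 reads of *Gad2* together with 282 reads of *Nxph1*.

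**Figure D4:**
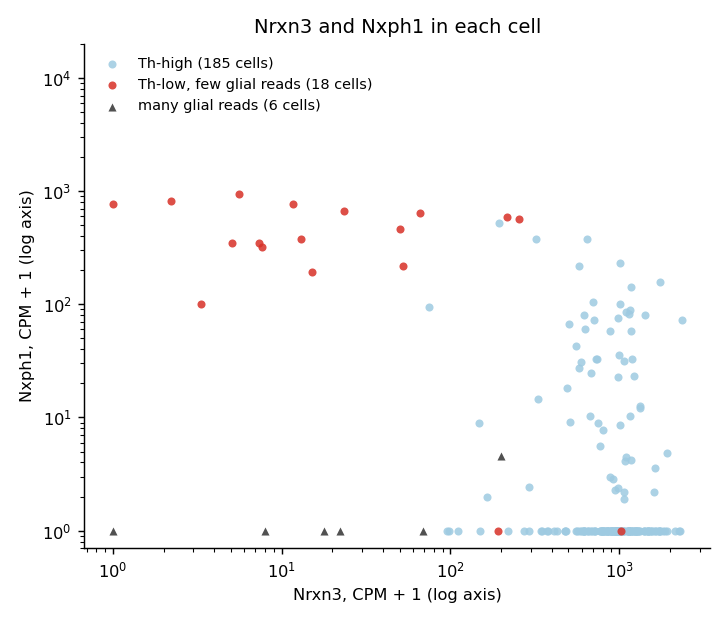
Nxph1 against Nrxn3 in each of 209 cells, in CPM with 1 added (both axes log); light blue points are 185 Th-high cells, red points 18 Th-low cells with few glial reads, and triangles the 6 glial-rich cells. Most red points sit at the upper left, with high Nxph1 and low Nrxn3, and the light blue points at the right.

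In sums per mouse the groups did not overlap for either gene. In mice 1, 2, 4, 5 and 6, *Nxph1* was at 87.0, 6.50, 6.86, 8.39 and 13.1 CPM in *Th*-high cells and at 293, 94.7, 722.7, 385 and 350 CPM in *Th*-low cells. The lowest *Th*-low sum was above the highest *Th*-high sum, that of mouse 1, by a small margin. The log2 difference, *Th*-high minus *Th*-low, was -3.97 ± 0.83, with an adjusted p of 0.0676 by edgeR and 8.17e-06 by DESeq2. Without mouse 1 it was -5.50 (edgeR adjusted p = 0.00361), and without the glial-rich cells, which left 4 mice, -4.17 (edgeR adjusted p = 0.0528). *Nrxn3* was at 686, 828, 735, 1228 and 1018 CPM in *Th*-high cells and at 42.1, 77.4, 2.26, 203 and 66.2 CPM in *Th*-low cells. Every *Th*-high sum was above every *Th*-low sum, with a log2 difference of 3.45 ± 0.75, adjusted p 0.0772 by edgeR and 0.000163 by DESeq2. Without mouse 4 it was 3.19 (edgeR adjusted p = 0.0446), without the glial-rich cells 3.63 (edgeR adjusted p = 0.148), and with the limit for *Th*-high at 2000 CPM it was 1.09.

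The calls for both genes moved with the cells entered: with cells of at least 100000 reads, edgeR's adjusted p was 0.00933 for *Nxph1* and 0.00679 for *Nrxn3*. Of the 6 members tested, edgeR called 0 (0.485% of all genes), 2 had an unadjusted p below 0.05 (*Nrxn3* and *Nxph1*, against 9.24%), 3 did with the mouse as a block (*Cbln1* added), and DESeq2 called *Nrxn3* and *Nxph1* (3.54%). Values did not overlap between classes for 3.97% of all genes. By shares, *Nxph1* was positive in 20.9 ± 8.31% of *Th*-high and 71.7 ± 29.8% of *Th*-low cells (lower in *Th*-high cells in 5 of 5 mice, as for 1.42% of 12106 genes; exact permutation p = 0.0625, two-sided). With 5 mice that is the smallest p, so 0 genes could reach 0.05.

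The other 4 members tested by *Th* had an unadjusted p above 0.05. *Cbln4* was at 138, 102, 20.0, 110 and 32.0 CPM in *Th*-high cells and at 81.3, 20.3, 169, 27.9 and 128 CPM in *Th*-low cells, higher in *Th*-high cells in 3 of 5 mice (log2 difference -0.16 ± 0.65). *Nxph3* had 0 reads in the *Th*-low sums of these 5 mice and between 0.926 and 16.0 CPM in the *Th*-high sums, so that its values did not overlap either, but it was too low to be tested. *Cbln1*, *Cbln2* and *Nrxn2* differed by 1.62 ± 1.45, -1.42 ± 1.78 and -1.0 ± 0.76. The value for *Cbln1* was 3.61 with the mouse as a block (edgeR adjusted p = 0.477) and 4.39 without mouse 5 (edgeR adjusted p = 0.452), that for *Cbln2* 3.00 with the block, and that for *Nrxn2* -0.18 without the glial-rich cells. Other markers differed beside the *Th* classes: summed astrocyte markers were 0 to 1814 CPM in *Th*-low sums, with 4 of 5 markers in a positive cell and *Aldh1l1* at 0, against 0 to 1.59 CPM in *Th*-high sums. Glutamate neuron markers were 168 to 1485 CPM against 113 to 170 CPM, with *Slc17a7* at 0 in both, and neuron markers 2848 to 5770 CPM against 6834 to 11680 CPM. The 9 dopamine neuron markers, *Th* and *Slc6a3* among them, summed to 1040 to 2942 CPM in *Th*-low sums and 12890 to 17760 CPM in *Th*-high sums. Their part in the differences was not tested, except that the differences for *Nxph1* and *Nrxn3* were as large without the glial-rich cells.

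Between the sexes, *Nxph1* was the member that did not overlap. It was at 150, 268 and 101 CPM in the females, mice 1, 4 and 6, and at a lowest of 13.8, a median of 24.2 and a highest of 46.3 CPM in the 5 males. Each female was above each male. The log2 difference, male minus female, was -2.60 ± 0.46 (adjusted p 0.238 by edgeR and 2.21e-05 by DESeq2). It was -3.95 within the first lane (2 males, 2 females) and -2.25 within the second (3 males, 2 females). Cells of mouse 4, the highest female, were in both lanes, so the lanes are not separate sets of mice. The females also gave more *Th*-low cells, 6 of 18, 4 of 12 and 4 of 17 cells, against 3 of 34, 1 of 45, 4 of 38, 1 of 24 and 0 of 21 in males. Of these *Th*-low cells, 3 in mouse 1, 1 in mouse 2 and 1 in mouse 3 were glial-rich, and without the glial-rich cells the difference was -2.65 (edgeR adjusted p = 0.189). Among *Th*-high cells alone the difference was -1.15 ± 0.77 (edgeR adjusted p = 0.801). *Nrxn3* was at 489, 468 and 771 CPM in females and 766 to 1132 CPM in males, overlapping in mice 6 and 2, with a difference of 0.72 ± 0.22 (edgeR adjusted p = 0.510), and 0.23 among *Th*-high cells. Each mouse was its own C1 run, so that sex, mouse and run cannot be told apart at the level of 1 animal. Age went with sex in part, since the females were aged 25, 33 and 36 days and the males 24 to 28 days, and its part was not tested. Of the 7 members tested, edgeR called 0 (0.0322% of all genes), 2 had an unadjusted p below 0.05 (*Nrxn3* and *Nxph1*, against 8.12%) and DESeq2 called *Nxph1* alone (1.27%). Values of the sexes did not overlap for 5.6% of all genes.

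**Figure D5:**
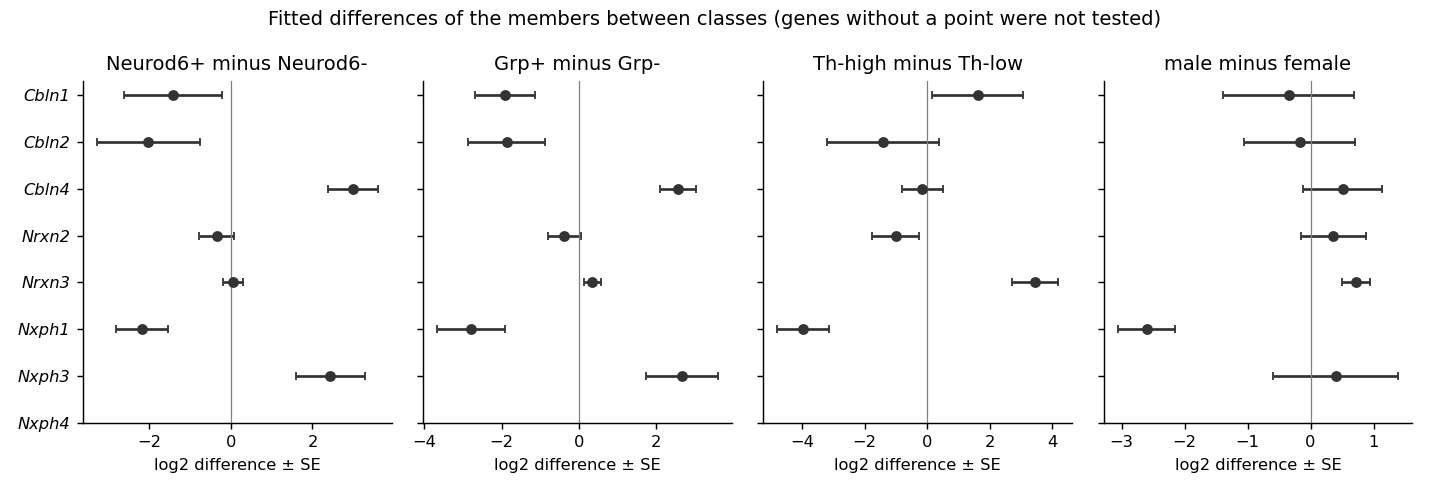
Fitted log2 difference ± SE of each gene between Neurod6 classes, Grp classes, Th classes and sexes, from counts summed per mouse. Cbln4 and Nxph3 lie right of 0 and Nxph1 left of 0 for Neurod6 and Grp; Nrxn3 and Nxph1 lie on opposite sides for Th; no gene passed an adjusted p of 0.05 in edgeR.

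The other genes of the neurexin system, 32 in all, gave 0 calls by edgeR. They were 7 further neurexins and secreted organizers, 16 postsynaptic partners and 9 presynaptic receptors and scaffolds. Of 27 tested by *Neurod6*, edgeR called 0 and 3 had an unadjusted p below 0.05 (6.2% of all genes did); the median log2 difference was -0.12 (0.00 over all genes tested). The 3 were *Lrrtm2*, a postsynaptic neurexin ligand (0.73 ± 0.27, edgeR adjusted p = 0.690), *Cask*, a scaffold that binds the neurexin tail (0.65 ± 0.25, 0.702), and *C1ql3*, a secreted relative of the cerebellins (-2.34 ± 1.02, 0.769). By *Grp*, 4 of 27 had an unadjusted p below 0.05 (5.9% of all genes) and the median was -0.08 (-0.02 over all genes); they were *Lin7a*, *Lphn3*, *Lrrtm1* and *Lrrtm2*. By *Th*, 5 of 27 did (9.24% of all genes) and the median was -0.19 (-0.11 over all genes). These were the latrophilins *Lphn3* (-1.11 ± 0.32, edgeR adjusted p = 0.229) and *Lphn2* (-2.08 ± 0.63, 0.263), *Lrrtm4*, *C1ql3* and *Apba2*. By sex 6 of 29 did (8.12%) with a median of 0.04 (0.02). Within *Grp*+ cells 1 of 26 did (*Lphn2*), beside 3.97% of all genes (median -0.21, against -0.02), and within *Neurod6*- cells 2 of 27 (*Lin7a* and *Lrrtm1*), beside 4% (median -0.02, against 0.02). In all 6 comparisons 0 of these genes passed edgeR's threshold, and those named were chosen after their values were seen.

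The genes most like each member across the 209 cells were named by Spearman's rho of CPM over 12106 genes, as a description; cells share mice, and low genes share depth. *Cbln4* was most like *Lpl*, which encodes lipoprotein lipase (rho = 0.716), *Neurod6* (0.681) and the receptor gene *Gpr83* (0.622); 66 of 79 *Lpl*+ cells and 46 of 49 *Neurod6*+ cells were *Cbln4*+. *Nxph3* was most like *Cbln4* (0.620), *Neurod6* (0.602) and *Gkn1* (0.586). The genes named for *Nxph1* were *4933436C20Rik* (0.484) and *Rprml* (0.472). *Nrxn3* was most like the synaptic vesicle calcium sensor *Syt1* (0.576), the nicotinic receptor subunit *Chrna4* (0.558) and the GDNF receptor component *Ret* (0.544). *Cbln1* was most like the noncoding gene *Gm2694* (0.603), *Necab1* (0.428) and *Stxbp5l* (0.420), and *Cbln2* like *Necab1* (0.377), *Grm8* (0.358) and *LOC102635113* (0.356). *Nrxn2* had no close likeness, with *Rn4.5s* at 0.336, *Ids* at 0.307 and *Gnas* at 0.290. *Nxph4* was present in too few cells to be ranked.

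On GRCm38.p6 the members lie apart. *Cbln1* is on chromosome 8 from 87468853 to 87472592 (minus strand), *Cbln4* on chromosome 2 from 172036336 to 172043466 (minus), *Nrxn2* on chromosome 19 from 6418756 to 6533217 (plus), *Nrxn3* on chromosome 12 from 88722701 to 90334935 (plus) and *Nxph1* on chromosome 6 from 8948614 to 9249619 (plus). *Nxph3* is on chromosome 11 from 95509845 to 95514565 (minus), *Nxph4* on chromosome 10 from 127525473 to 127534559 (minus) and *Cbln2* on chromosome 18. Genes on the opposite strand cover 6.44% of the exon bases of *Nrxn2* and 3.48% of those of *Nrxn3*, where reads cannot be assigned without strand. No annotated exon of another gene overlaps the exons of the other 6 members, and overlap with their introns was not looked at.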

How the data were processed

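Single cells of 8 mice were measured by RNA sequencing. Per the submitters' processing notes, the authors used bcl2fastq 2.17, Trimmomatic 0.3.2, TopHat2 2.1.1 and featureCounts 1.5.0-p3 on GRCm38/mm10 and left out reads on more than 1 gene; they deposited raw counts per RefSeq gene, without normalization. The kit does not mark strand. Entries for spike-ins and transgenes (94, 0.00325% of reads) were left out of library sizes and tests, as were 5721 entries with no value. All columns were matched to a labelled sample; a deposited table of alignment metrics that names no cells was not used here.

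Cells with at least 500000 reads (500672 at the lowest) were kept. The replicate is the mouse. For mice with 3 or more cells in both classes, counts were summed per mouse and class. The test was the quasi-likelihood F test of edgeR 4.0.16 (R 4.3.3), after TMM scaling and filterByExpr, with Benjamini-Hochberg adjustment over all genes tested and a threshold of 0.05. DESeq2 1.42.0 was the other tool. Shares of cells with at least 10 reads and log2 RPKM (pseudocount 0.1) were compared with exact sign-flip permutation tests over mice (Python 3.11.15, numpy 2.4.6, pandas 2.3.3, scipy 1.17.1; figures with matplotlib 3.10.9). Intervals are exact (Clopper-Pearson), and the limit given for a share of 0 is 3 cells of the total. Both classes of a comparison come from the same animals, so the mouse pairs them; after the class means were removed, correlations between the classes of a mouse were 0.0540 to 0.275 by *Neurod6*, 0.0449 to 0.321 by *Grp* and 0.0195 to 0.157 by *Th*.

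The genes named are the 8 members, the class genes, and the 3 genes with the highest Spearman's rho to each member (1 of those for *Nxph1* is not reported here). From 32 other neurexin-system genes (in which *Lphn1* to *Lphn3* are the table's symbols for *Adgrl1* to *Adgrl3*), those past the threshold were to be named, of which there were none; the few with an unadjusted p below 0.05 were named instead, after their values were seen. Members and lists were chosen with earlier results of these data known. The alternatives that leave out glial-rich or *Gad1*+ cells, use 1 lane, or test sex among *Th*-high cells were chosen after the data were seen. On simulated counts with the real means and library sizes, edgeR recovered 38.7% of genes changed 4-fold and 86.5% of those changed 16-fold in the *Neurod6* design (12204 genes), 53.6% and 88.5% in the *Grp* design (12176 genes), 17.7% and 55.8% in the *Th* design (10574 genes) and 33.3% and 61.6% between the sexes (14932 genes).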

Additional observations from a re-analysis of the deposited data

Results flagged for a closer look

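Each of the 8 genes was looked at in both classes of the *Neurod6*, *Grp* and *Th* comparisons and in the groups of mice, 56 groups of values in all, for 1 mouse far from the others by Dixon's criterion. In 13 groups 1 mouse stood apart. For normally distributed values the criterion flags about 1 in 20 groups by chance, or 2.8 groups. The values were CPM without a log scale, and some flagged ones rested on few reads or cells, so that rate need not hold. Whether 13 groups are more than chance gives therefore cannot be told from this count. The groups share mice and cells.

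Among *Neurod6*+ cells, mouse 5 stood apart for *Cbln1* at 54.1 CPM (0 to 15.9 CPM in the others), mouse 8 for *Cbln2* at 16.5 CPM (0 to 5.32 CPM) and mouse 1 for *Nxph3* at 52.6 CPM (6.72 to 16.1 CPM), the last on 3 cells. *Nxph4* in mouse 2, at 0.112 CPM, was 1 read. Among *Neurod6*- cells, mouse 8 stood apart for *Cbln4* at 114 CPM (4.08 to 38.5 CPM) and mouse 1 for *Nxph1* at 182 CPM (15.9 to 66.2 CPM).

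Among *Grp*+ cells, mouse 8 stood apart for *Cbln2* at 23.5 CPM (0 to 8.86 CPM) and mouse 1 for *Nxph3* at 34.9 CPM (4.07 to 14.9 CPM), and *Nxph4* in mouse 1, at 0.248 CPM, was 1 read. Among *Grp*- cells, mouse 8 stood apart for *Nxph3* at 7.84 CPM (0 to 2.53 CPM). Among *Th*-high cells, mouse 1 stood apart for *Nxph1* at 87.0 CPM (6.50 to 13.1 CPM). Among *Th*-low cells, mouse 5 stood apart for *Cbln1* at 64.1 CPM (0 to 4.96 CPM) and mouse 6 for *Cbln2* at 85.5 CPM (0 to 9.67 CPM), each on 4 cells.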

How the results depend on the processing

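Counts of all genes past edgeR's threshold depended on the setting. By *Neurod6* there were 7: 4 with DESeq2's size factors (RLE), 126 with DESeq2, 3 with no filter, 12 with cells of at least 100000 reads, 1 with the mouse as a replicate block, 3 with positives from 50 reads, 1 among *Th*-high cells, 0 and 1 within the first and second lane, and 1 to 18 without 1 mouse (18 without mouse 3). By *Grp* there was 1: 52 with DESeq2, 2 with no filter, 2 with positives from 1 read, 3 from 50 reads, 0 and 2 within lanes, and 1 to 4 without 1 mouse. By *Th* there were 54: 378 with DESeq2, 30 with no filter, 98 with cells of at least 100000 reads, 11 with the replicate block, 0 with the limit at 100 CPM, 85 without *Gad1*+ cells, and 10 to 105 without 1 mouse (105 without mouse 1). By *Neurod6* within *Grp*+ cells there was 1: 30 with DESeq2, 0 with the replicate block, 3 and 0 with positives from 1 and 50 reads. By *Grp* within *Neurod6*- cells there was 1: 36 with DESeq2, 3 with no filter, 3 with cells of at least 100000 reads, 2 with the replicate block, 2 with positives from 50 reads, and 1 to 3 without 1 mouse. Between the sexes there were 5: 190 with DESeq2, and 0 and 1 within lanes. The cause was not tested. Among the members, the replicate block moved no edgeR call.

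The 2 neighbouring levels that differed were 1 to 3 without 1 mouse. The 3 shares that differed by *Neurod6* were 0 without 1 mouse, since 5 mice allow no p below 0.0625. *Nxph3* stood below *Nrxn2* with the longest transcript as length (log2 -0.91), the mean over cells (-0.019) or cells of at least 100000 reads (-0.21), and from -0.18 to 0.38 without 1 mouse; *Nxph1* against *Cbln1* ran from -0.0511 to 1.35. Share differences that turned were *Nrxn2* by *Neurod6* from 1 read (1.59 percentage points), by *Grp* (1.10) and by *Th* (14.0) without glial-rich cells, and, without 1 mouse, *Nxph1* by *Neurod6* (-3.07 to 0.961), *Nrxn2* by *Grp* (-4.26 to 6.48), and by *Th* *Cbln2* (-6.77 to 2.71), *Cbln4* (-19.8 to 0.188) and *Nrxn2* (-8.67 to 5.67).

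Among log2 differences, those that turned by *Neurod6* were *Nrxn3* among *Th*-high cells (-0.10) and *Nrxn2* from 1 read (0.04). By *Th* they were *Cbln4* with cells of at least 100000 reads (0.42), the replicate block (0.02), limits of 100 and 2000 CPM (0.22 and 0.46), mice with 1 cell in each class (0.25) and without 1 mouse (-0.52 to 0.46), and *Cbln2* with the replicate block (3.00), a limit of 100 CPM (0.31) and without 1 mouse (-1.83 to 1.16). Within *Grp*+ cells they were *Nxph1* with the replicate block (0.68), from 50 reads (0.16) and without 1 mouse (-1.42 to 2.02), *Cbln1* from 1 and 50 reads (0.11 and 0.86) and without 1 mouse (-1.99 to 0.56), and from 50 reads *Nxph3* (-0.16), *Nrxn3* (0.01) and *Nrxn2* (0.36). Within *Neurod6*- cells *Nrxn2* turned with cells of at least 100000 reads (-0.28), the replicate block (-0.09), positives from 1 and 50 reads (-0.14 and -1.08) and without 1 mouse (-0.25 to 0.20). Between the sexes *Cbln4* turned in the first lane (-0.50), *Cbln1* in the second (0.34) and without 1 mouse (-0.92 to 0.08), *Nxph3* among *Th*-high cells (-0.11), in the first lane (-0.06) and without 1 mouse (-0.11 to 2.05), and *Cbln2* likewise (0.70, 1.08 and -0.85 to 1.42). *Cbln4* by *Neurod6* and by *Grp*, and *Nxph1* and *Nrxn3* by *Th*, kept their direction under each alternative run.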
